A study of Mus musculus with 20 samples.

Results

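The 10 genes described here encode receptors of myeloid cells: Trem1, Trem2, Trem3 and Treml4 of the TREM family, their signalling adaptor Tyrobp (DAP12), and the C-type lectins Clec4d, Clec4e, Clec4n, Clec7a and Clec10a. They were named as a family, 10 of the 35579 genes measured, and 3 of them (Trem1, Treml4 and Clec4e) were selected on their counts, which were high in skin irradiated at the conventional dose rate. For those 3, every comparison with that group is a description without a test. RNA was sequenced from left hindlimb skin and muscle of wild-type C57BL/6J mice. Each tissue had 4 libraries from limbs that received a 35 Gy electron dose in FLASH mode (an ultra-high dose rate), 3 from limbs that received 35 Gy in conventional mode (CONV) and 3 from sham limbs that were not irradiated, all at day 70. The same linear accelerator gave both modes, and the design asks how their late effects differ. Whether the replicates of a group are different animals is not stated in the labels, and a p-value here covers only the spread over these libraries, part of which may be technical. Skin was batch 1 and muscle batch 2, so tissue and batch cannot be told apart.

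TREM receptors have short cytoplasmic tails and signal through Tyrobp, whose ITAM recruits the kinase Syk. Trem1 amplifies inflammatory signalling on neutrophils and monocytes, while Trem2 is a lipid receptor of tissue macrophages. Clec4d (MCL), Clec4e (Mincle) and Clec4n (Dectin-2) bind microbial and damaged-cell ligands and use the Fc receptor gamma chain, encoded by Fcer1g, while Clec7a (Dectin-1), the beta-glucan receptor, carries an ITAM-like motif of its own. These lectins signal through Syk and the CARD9 adaptor to NF-kappaB, and Clec10a (MGL1) is a galactose-type lectin of macrophages and dendritic cells.

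In the mouse assembly GRCm38 (mm10), as annotated in GENCODE M21, the 4 TREM genes lie on the plus strand of chromosome 17, Trem1 at 48232768 to 48246924, Trem3 at 48247777 to 48258841, Treml4 at 48264295 to 48275360 and Trem2 at 48346401 to 48354147. On chromosome 6, Clec4n (123229843 to 123247021, plus strand), Clec4d (123262111 to 123275265, plus) and Clec4e (123281789 to 123289870, minus) are neighbours, and Clec7a lies at 129461591 to 129472779 on the minus strand. Tyrobp is at 30413760 to 30417585 of chromosome 7 and Clec10a at 70156197 to 70170834 of chromosome 11, both on the plus strand. The annotation classes Clec7a as a polymorphic pseudogene.

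Skin libraries held 24396463 to 33250762 estimated counts and muscle libraries 10198699 to 12336479. Levels are given as CPM, the estimated count relative to the library total after TMM scaling within a tissue. Summed keratinocyte markers were 6330 to 54460 CPM in skin and 0.572 to 8.06 in muscle, and summed skeletal muscle markers 47870 to 84350 CPM in muscle. Skin also held skeletal muscle RNA, from 56.3 to 2992 CPM in 8 libraries and 21030 and 20930 CPM in FLASH library 2 and sham library 1. Groups follow the GEO record of each file. In 2 skin and 5 muscle records the file carried the library name of another record. In skin these were FLASH library 1, named as sham, and sham library 3, named as FLASH. In muscle, FLASH libraries 2 and 3 carried sham names, sham libraries 2 and 3 carried FLASH names, and FLASH library 1 carried the name of a different FLASH library. The CONV files all carried their own names, so a comparison of the 3 CONV libraries with the 7 others of a tissue is the same under both assignments.

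The receptor genes that were high together in CONV skin are shown first by the sequence before their start sites. Windows of 250 bases were taken from RefSeq (build GRCm38.p6) for the 6 members the table holds (Trem1, Trem2, Treml4, Clec4d, Clec4e and Clec7a) and searched on both strands for GAGGAA (the core of the site of the myeloid factor PU.1), TTGCNNAA (C/EBP), TGANTCA (AP-1) and the kappaB consensus. The 4 windows below are of Trem1 (chr17:48232489-48232738, plus strand) and Clec4e (chr6:123289872-123290121, minus), both chosen for CONV skin, Clec4d (chr6:123261857-123262106, plus), which was among the highest there, and Trem2 (chr17:48346151-48346400, plus), whose pattern differed. Each is read 5′ to 3′ on the gene's strand, with motif matches in capitals, as they read on that strand.
Trem1: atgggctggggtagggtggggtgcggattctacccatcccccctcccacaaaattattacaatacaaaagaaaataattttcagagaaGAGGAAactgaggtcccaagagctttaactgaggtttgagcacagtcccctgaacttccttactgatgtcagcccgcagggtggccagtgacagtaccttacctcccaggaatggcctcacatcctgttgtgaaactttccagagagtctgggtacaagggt
Clec4e: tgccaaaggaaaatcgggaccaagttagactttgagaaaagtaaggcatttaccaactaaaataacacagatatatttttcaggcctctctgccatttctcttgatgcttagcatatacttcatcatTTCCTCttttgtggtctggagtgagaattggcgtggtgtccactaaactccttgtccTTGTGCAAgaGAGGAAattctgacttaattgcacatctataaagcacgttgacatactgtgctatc
Clec4d: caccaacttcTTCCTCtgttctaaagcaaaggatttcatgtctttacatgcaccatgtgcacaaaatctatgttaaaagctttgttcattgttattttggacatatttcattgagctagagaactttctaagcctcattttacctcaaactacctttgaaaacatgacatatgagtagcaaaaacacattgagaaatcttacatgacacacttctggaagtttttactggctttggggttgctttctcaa
Trem2: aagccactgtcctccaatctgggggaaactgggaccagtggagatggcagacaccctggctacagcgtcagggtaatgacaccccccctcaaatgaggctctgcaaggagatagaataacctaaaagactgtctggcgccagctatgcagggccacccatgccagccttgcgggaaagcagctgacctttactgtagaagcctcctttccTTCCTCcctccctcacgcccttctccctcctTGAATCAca
The PU.1 core began at position −162 from the start site in Trem1, −123 and −56 in Clec4e, −240 in Clec4d and −40 in Trem2. It was present in 6 of 6 member windows, against 23.3% of all 32851 windows. Clec4e also held a C/EBP match at −66, a motif present in 9.56% of windows, and Trem2 an AP-1 match at −9, present in 6.75%. None of the 6 held the kappaB consensus, which 5.00% of windows held. No match overlapped another, and a match of letters is a description of the sequence, not of binding.

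Among the TREM family in skin, Trem1 held 0.560, 0.412, 0.664 and 4.04 CPM in the FLASH libraries, 11.7, 32.0 and 60.4 in the CONV libraries and 0.676, 0.608 and 0.191 in the sham libraries. Every CONV library was above every other, and the CONV mean of 34.7 ± 24.5 CPM (SD, n = 3) was 34.0 times that of the 7 other libraries. Treml4, a receptor of phagocytes that binds dead cells, held 0.0659, 0.0749, 0.0949 and 0.182 CPM in FLASH, 0.801, 4.17 and 3.41 in CONV and 0 in each sham library. Its CONV sum of 215 counts was at least 80.4-fold the level that 3 counts over the sham group would give. Trem3, another Tyrobp-coupled receptor of mouse macrophages, held 0 in 3 FLASH libraries and 0.152 CPM in the other, 0.801, 3.08 and 4.24 CPM in CONV, and 0.0375, 0 and 0 CPM in sham. With 5, 218 and 1 counts summed over FLASH, CONV and sham, most Trem3 counts came from the CONV libraries.

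The adaptor Tyrobp was measured at 5.11, 3.93, 3.13 and 8.32 CPM in FLASH, 13.8, 19.2 and 44.1 in CONV and 4.09, 3.68 and 3.51 in sham, again with no overlap between CONV and the rest. Its CONV mean was 25.7 ± 16.2 CPM (SD, n = 3), 5.66 times the mean of the other 7. Trem2 spread less, with 6.89, 7.31, 7.59 and 9.44 CPM in FLASH, 10.45, 20.5 and 16.4 in CONV and 5.55, 6.89 and 7.37 in sham. The lowest CONV library was close to the highest FLASH library, and the CONV mean was 2.16 times that of the others. Counts of Trem2 were 0.372 to 1.06 times those of Tyrobp in CONV, against 1.14 to 2.42 times in FLASH and 1.36 to 2.10 times in sham.

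Of the C-type lectins in skin, Clec4d had 0.198, 0.0749, 0.190 and 4.28 CPM in FLASH, 7.71, 23.7 and 41.5 in CONV and 0.300, 0 and 0.128 in sham. Clec4e, which pairs with it in a receptor complex, held 1.55, 2.36, 1.96 and 6.50 CPM in FLASH, 13.4, 33.1 and 65.2 in CONV and 1.39, 1.60 and 1.76 in sham. Both had all CONV libraries above all others, at 32.9 and 15.2 times the mean of the others. The alpha-mannan receptor Clec4n held 1.98, 1.61, 1.68 and 7.68 CPM in FLASH, 7.97, 12.6 and 36.9 in CONV and 1.46, 1.05 and 1.69 in sham. For Clec4n the FLASH library 4 value lay just under the lowest CONV value. Clec7a held 7.02, 5.58, 4.62 and 13.9 CPM in FLASH, 14.3, 20.4 and 77.7 in CONV and 9.04, 4.70 and 4.79 in sham, with the same near meeting of FLASH library 4 and CONV library 1. Clec10a went another way, with 19.1, 12.8, 6.99 and 19.6 CPM in FLASH, 10.1, 32.5 and 11.3 in CONV and 20.98, 13.8 and 8.97 in sham. Its groups overlapped fully, and the means were 14.6 ± 5.95 (n = 4), 18.0 ± 12.6 (n = 3) and 14.6 ± 6.05 CPM (n = 3) in FLASH, CONV and sham (SD).

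**Figure D1:**
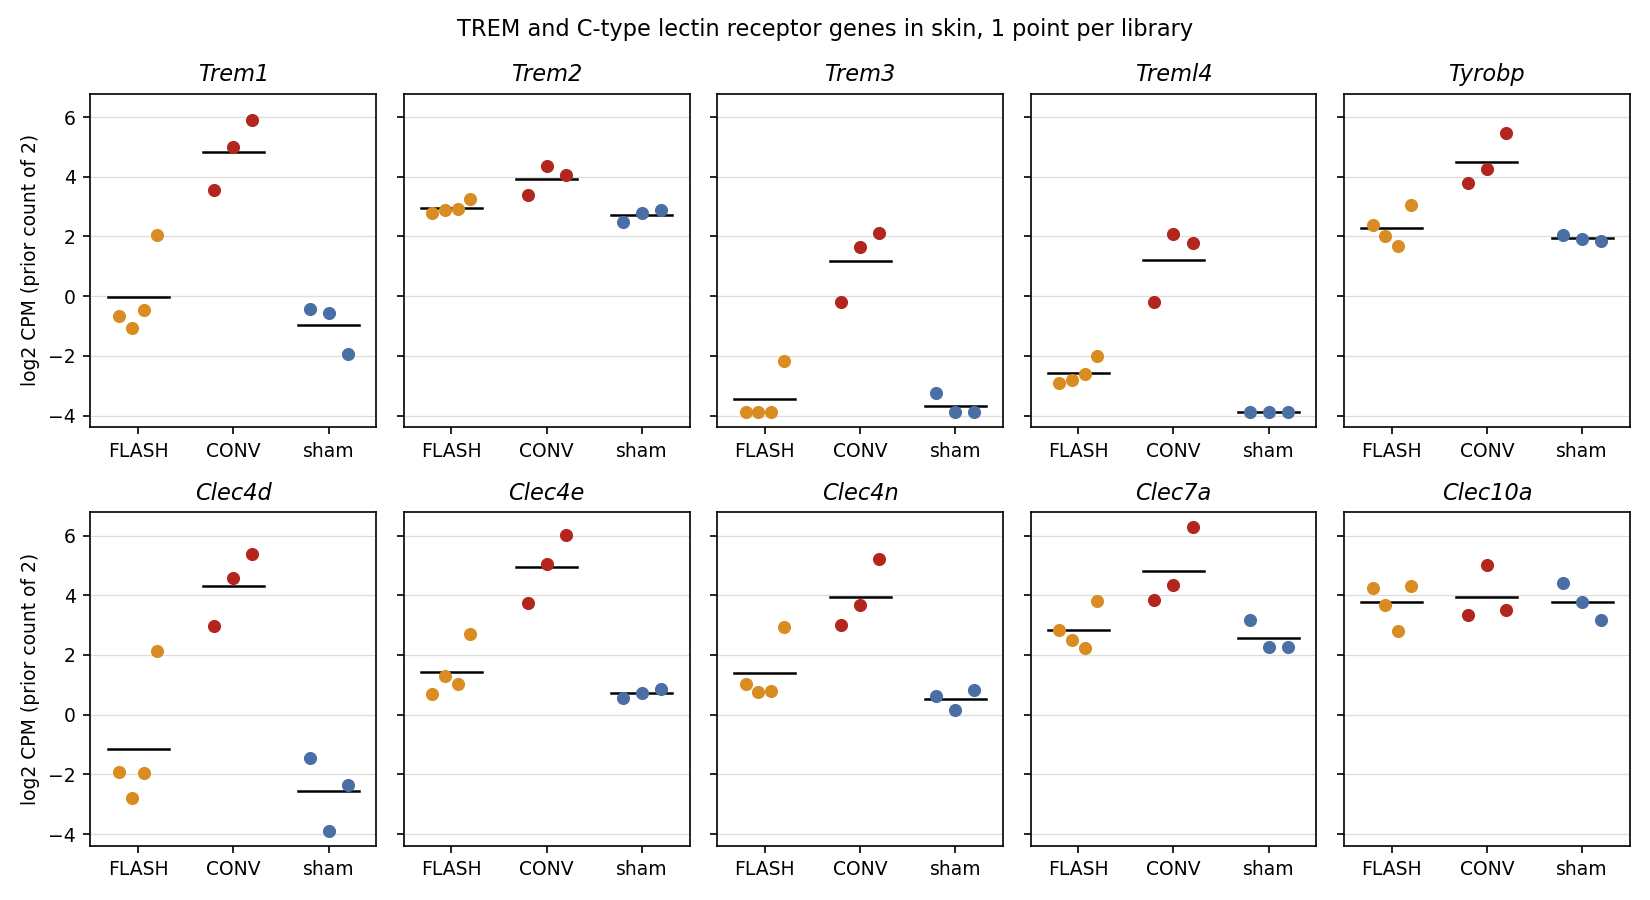
Log2 CPM (prior count of 2) of the 10 members, 1 panel each, with the FLASH, CONV and sham skin libraries from left to right. Each point is 1 library and each line the group mean. In 9 of 10 members all 3 CONV points lie above the 7 others, and FLASH library 4 is the highest FLASH point in 10 of 10. The share over all genes is 3.85% for the first order and was not computed for the other.

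Counted over members, all 3 CONV libraries were above all 7 others in 9 of 10, and in 6 of the 7 that were not chosen for it (Clec10a being the exception). Of those 7, Trem3 and Clec4d passed the filter on low counts only through the CONV libraries, where they are high, so they had to differ, and they are described below without a test; 4 of the other 5 had this order. Over all 20026 genes tested, 3.85% had this order. CONV library 1 was the lowest CONV library for 10 of 10 members, and CONV library 3 was the highest for 7.

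The comparison of CONV skin with the 7 other skin libraries was made by edgeR's quasi-likelihood test with Benjamini-Hochberg adjustment over 20026 genes, and 4 of the 5 members that also passed the filter outside CONV rose: Trem2, Tyrobp, Clec4n and Clec7a. None fell. Over all genes 1.58% were higher and 0.0699% lower at the 0.05 threshold, and the median log2 fold change was 2.40 over the 5 members and 0.0047 over all genes. Tyrobp had a log2 fold change of 2.50 ± 0.37 (SE, edgeR adjusted p = 0.0352). Clec4n stood at 2.96 ± 0.62 and Clec7a at 2.40 ± 0.50 (edgeR adjusted p = 0.0474 each), and Trem2 at 1.11 ± 0.21 (adjusted p = 0.0387). Clec10a had 0.30 ± 0.43 (edgeR adjusted p = 0.695). As a description, Trem3 had 6.41 and Clec4d 5.02. Described without a test, the 3 members chosen for CONV skin had log2 fold changes of 5.07 (Trem1), 5.44 (Treml4) and 3.92 (Clec4e).

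All 4 calls lay close under the threshold and depended on the libraries. Of the 5, the count called was 0 without any one of FLASH libraries 1, 2 and 3, CONV library 3 or sham libraries 1, 2 and 3, 1 without CONV library 2, and 4 without FLASH library 4 or CONV library 1. Over all genes, 331 were called, 0 or 1 without any one of the first 7 libraries, 148 without CONV library 2, 1454 without FLASH library 4 and 1319 without CONV library 1. It was also 0 without the 2 libraries whose file name belongs to another record, and 0 without the 2 libraries richest in skeletal muscle genes, an alternative chosen after seeing the data. In bulk tissue, a change in the number of cells that express a gene and a change in the RNA per cell cannot be told apart.

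Split into pairs of groups, no member and no gene passed the threshold in skin (0% of 20026 genes in each direction) in any of the 3 comparisons, which share libraries with one another and with the comparison above. In FLASH against CONV, 4 of the same 5 members had an unadjusted p under 0.05, as did 2540 genes of all those tested. The fold changes of the 5 were negative, with a median of −2.27 on the log2 scale against −0.0056 over all genes. Tyrobp had −2.33 ± 0.44 and Trem2 −1.01 ± 0.24 (SE, edgeR adjusted p = 0.249 each). Clec4n had −2.56 ± 0.68 and Clec7a −2.27 ± 0.61 (edgeR adjusted p = 0.270 each), and Clec10a −0.29 ± 0.50 (adjusted p = 0.816). Trem3 and Clec4d, described without a test, had −5.93 and −4.34. The FLASH libraries were all below the CONV libraries for 9 of 10 members, for 6 of the 7 not chosen for CONV skin and for 4 of the 5, an order found for 4.73% of genes. DESeq2 on the same counts called 4 of the 5, with 457 genes in all, and edgeR called 1 of the 5 when CONV library 1 was left out, with 117 genes in all.

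CONV against sham gave positive values for the same 5 members, with a median of 2.60 on the log2 scale against 0.0083 over all genes, and an unadjusted p under 0.05 for 4 of the 5 and for 4035 genes. Clec4n had 3.77 ± 0.80, Tyrobp 2.77 ± 0.49 and Trem2 1.26 ± 0.26 (SE, edgeR adjusted p = 0.127 each). Clec7a had 2.60 ± 0.69 (adjusted p = 0.129) and Clec10a 0.30 ± 0.54. Trem3 and Clec4d, described without a test, had fitted values of 7.49 and 7.45, with 1 and 12 counts summed over sham. DESeq2 called 4 of the 5, with 1630 genes in all. edgeR called 2 of the 5 without FLASH library 4 (89 genes in all) and 3 without CONV library 1 (406 genes in all). All CONV libraries were above all sham libraries for 9 of 10 members, for 6 of the 7 not chosen for CONV skin and for 4 of the 5, an order that 13.6% of genes showed.

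FLASH against sham, in which no member was used by the choice of the list, left all 10 members with an edgeR adjusted p of 1, and 132 genes of all tested had an unadjusted p under 0.05. The 5 members not chosen for CONV skin and past the filter outside CONV had log2 fold changes from 0.0056 (Clec10a) to 1.21 (Clec4n). The median over all genes was 0.0019. No member that passed the filter outside CONV had an unadjusted p under 0.05. Treml4 alone of the 10 had all 4 FLASH libraries above all sham libraries, an order that 0.829% of genes showed. It passed the filter on low counts only through the CONV libraries, so this order is a description without a test. Its 13 counts over the FLASH libraries, against 0 in sham, were at least 3.37-fold the level of 3 counts over the sham group. By library name, FLASH library 1 with 2 Treml4 counts would be sham and sham library 3 with 0 counts FLASH, and then the groups overlap and sham is not at 0. Trem1 had a log2 fold change of 1.53 ± 0.93, Clec4e 0.97 ± 0.61 and Clec4n 1.21 ± 0.71, while Trem2 had 0.24 ± 0.24, Tyrobp 0.45 ± 0.44 and Clec7a 0.34 ± 0.61.

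FLASH library 4 was the highest FLASH library for 10 of 10 members, above all sham libraries for 9 and below all CONV libraries for 9. How many of all genes had these orders was not computed, so they may be a trait of the library and not of the members. In FLASH libraries 1 to 3, Clec4d held at most 0.198 CPM and Trem1 at most 0.664 CPM, inside or close to the sham ranges of 0 to 0.300 and 0.191 to 0.676 CPM. The same library was the highest of the FLASH and sham libraries in summed macrophage markers (626 CPM, against 343, 344 and 359 in the other FLASH libraries and 295 to 377 in sham) and in summed cytokine genes (85.8 CPM, against 14.3 to 15.4 in the other FLASH libraries and 12.8 to 20.9 in sham). Its summed neutrophil markers were 139 CPM, against 48.1 to 107 in the other FLASH libraries and 84.4 to 105 in sham. Such a sum follows its most abundant genes, and a scarcer marker can differ far more between libraries. Single neutrophil markers of this library were not compared. Compared with CONV library 1, it held more macrophage marker RNA (626 against 551 CPM). Its summed neutrophil markers (139 CPM) were below the lowest CONV value, which was 251 CPM. The part of cell numbers in these values was not tested.

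Trem2 and Clec4e counts were divided between coding and other transcripts in a way that differed by group, seen after the counts were examined. In sham skin, transcripts annotated as coding took 0, 0 and 1.8 of 148, 249 and 231 Trem2 counts and 0 of 37, 58 and 55 Clec4e counts. The rest of Trem2 lay mainly on Trem2-203, a retained-intron transcript of 4784 bases, 3735 of them outside coding transcript Trem2-201 (1861 in its introns and 1874 beyond its end). The rest of Clec4e lay on Clec4e-206, of 4014 bases, with 2375 bases in introns of Clec4e-201. No other annotated gene overlaps either locus. Reads of unspliced RNA and of a mature retained-intron transcript cannot be told apart in these files.

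In CONV skin the coding transcripts of Trem2 took 34, 114.7 and 183.6 counts, or 12.4%, 26.6% and 35.9% of the gene, against 3.8, 2.6, 0 and 20 counts in the FLASH libraries. Coding Trem2 averaged 0.207 ± 0.272 CPM in FLASH (n = 4), 4.21 ± 2.53 in CONV (n = 3) and 0.0191 ± 0.0332 in sham (SD, n = 3), while its other transcripts averaged 7.60 ± 0.890, 11.6 ± 3.08 and 6.58 ± 0.917 CPM in the same groups. The CONV libraries of the coding level did not overlap the others, and their ratio to sham was far larger than that of the gene as a whole. Coding transcripts of Clec4e took 160.9, 397.9 and 1030 counts in CONV (46.0%, 57.0% and 50.8% of the gene), against 0 in 3 FLASH libraries and 95.2 counts in FLASH library 4. When only coding transcripts were summed, the log2 fold change of Trem2 between CONV and the other skin libraries was 4.90, against 1.11 with all transcripts. Outside CONV, no library but FLASH library 4 (20 counts) held more than 3.8 coding Trem2 counts. The 4.90 is therefore a description without a test. That edgeR fit called 1.55% of 17192 genes. Tyrobp and Clec7a were called in it, and Clec4n was not (3.01 ± 0.65, edgeR adjusted p = 0.0517).

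**Figure D2:**
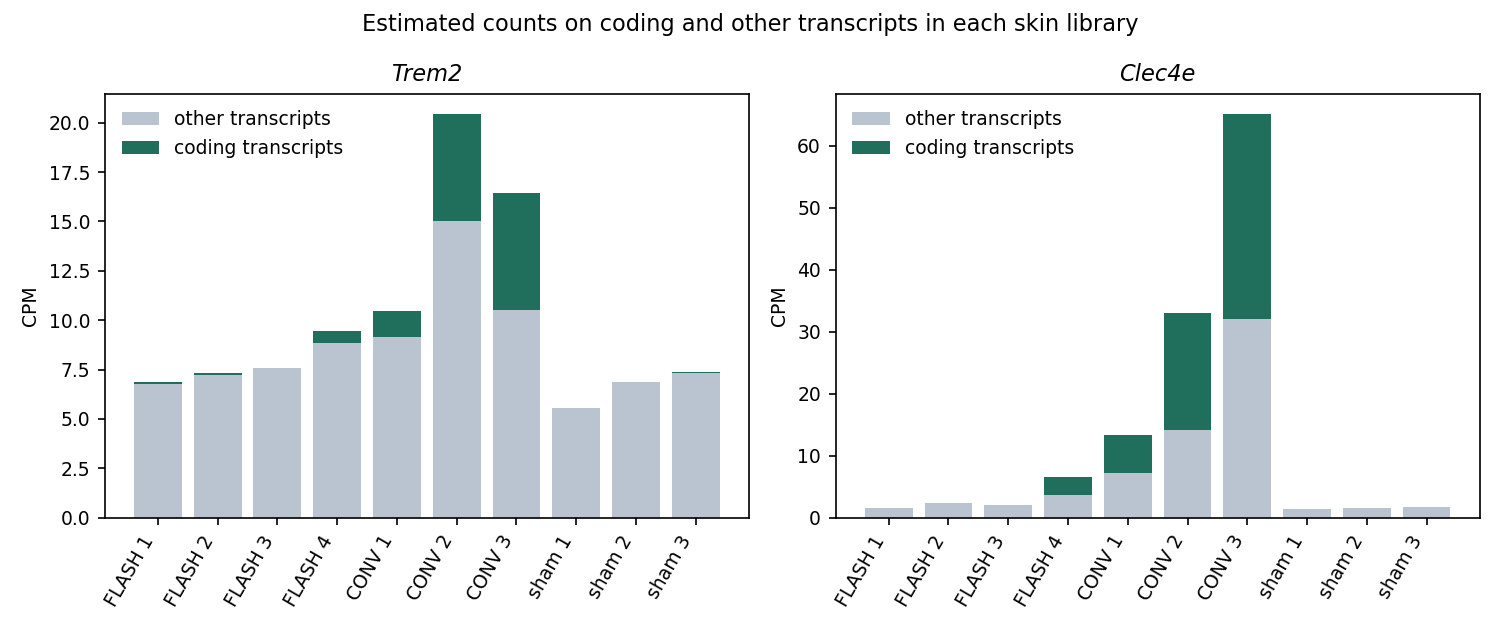
CPM of Trem2 (left) and Clec4e (right) in each skin library, as bars stacked from other transcripts (grey) and coding transcripts (green). Coding transcripts of Clec4e held 6.14 to 33.1 CPM in CONV, 0 to 2.89 in FLASH and 0 in sham.

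To set the receptors against macrophage RNA, each member's log2 CPM (prior count 2) was taken relative to the mean of 13 macrophage markers such as Csf1r and Adgre1. CONV was compared with the 7 other skin libraries by a 2-sided exact permutation test, whose smallest possible p is 0.008333. The adjustment was over the 7 members not chosen for CONV skin, Trem3 and Clec4d included. Clec4n differed by 1.79 on the log2 scale, Tyrobp by 1.23 and Clec7a by 0.96, and all 3 rose relative to the markers in CONV (exact permutation p = 0.008333 each, adjusted 0.0117). Adjusted over the 5 members that pass the filter outside CONV, these were 0.0139 each. Any gene with all 3 CONV libraries above the 7 others would give this smallest p. How many of all genes had that order relative to the markers was not computed, so it may not be particular to the members. Clec4d stood at −1.03 in CONV against −5.94 in the others, and Trem3 differed by 3.59. Both are descriptions, since these 2 passed the filter only through CONV. Clec10a fell relative to the markers, at −1.38 in CONV against −0.41 in the others (difference −0.96, exact permutation p = 0.0417, adjusted 0.0486), a call lost when p was adjusted over the 5 members that pass the filter outside CONV (adjusted 0.0521). Trem2 differed by less than its spread, with −1.40 ± 0.44 in CONV (n = 3) against −1.33 ± 0.34 in the others (SD, n = 7, exact permutation p = 0.742). This Trem2 level sums all transcripts, of which the coding ones differed far more between the groups (log2 fold change of 4.90, described above without a test). The level of the coding transcripts relative to the markers was not computed. Without a test, Trem1, Treml4 and Clec4e differed by 4.12, 3.22 and 2.67. The Clec10a call was lost in 9 of 10 fits that left out 1 library, with Csf1r and Adgre1 alone as markers (adjusted 0.126) and without the 2 libraries of disagreeing name (0.104), and the Clec7a call without CONV library 3 (0.52, adjusted 0.0778, 2 against 7 libraries).

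**Figure D3:**
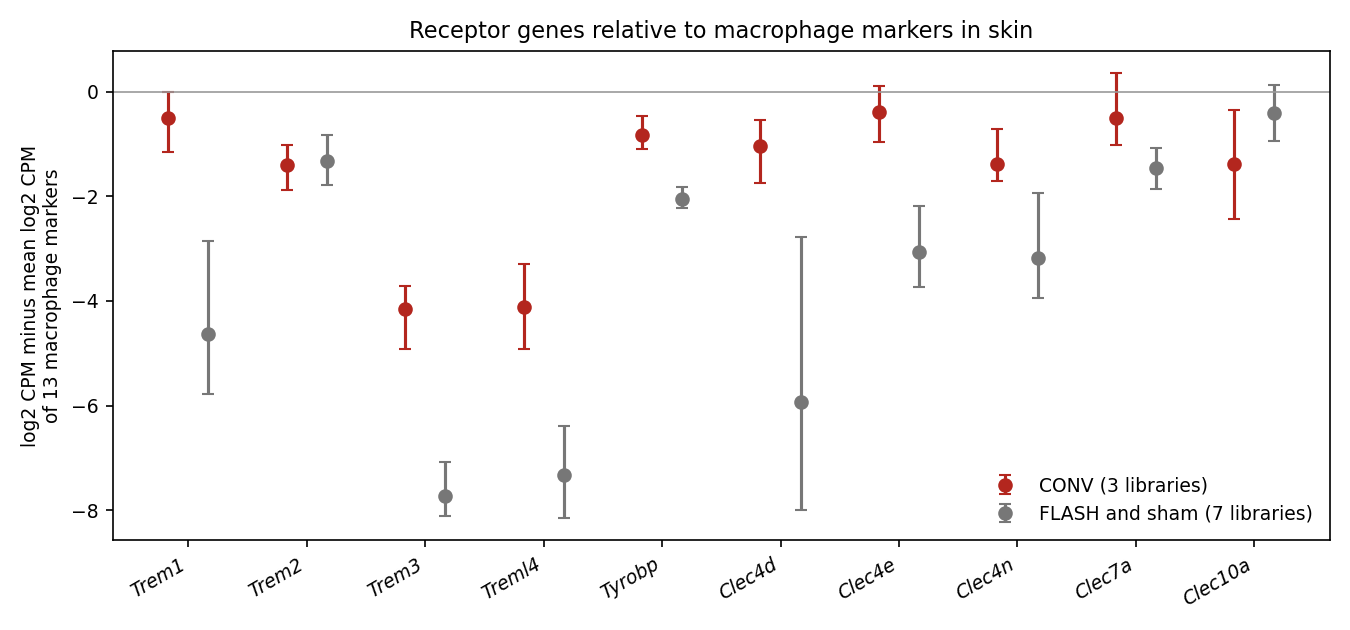
Log2 CPM of each member minus the mean log2 CPM of 13 macrophage markers. Points are means and bars run from the lowest to the highest library, for the 3 CONV libraries (red) and the 7 FLASH and sham libraries (grey); Trem2 has means of −1.40 and −1.33, and Clec10a has the lower mean in CONV.

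The genes around the receptors were read from lists written with earlier results of these data known, so the direction of a list is not independent evidence. In the comparison of CONV with the 7 other skin libraries, 6 of 16 ITAM adaptors and kinases rose and none fell (median log2 fold change 1.37). Among these were Syk (1.34 ± 0.24, edgeR adjusted p = 0.0375), Pik3ap1 (1.84 ± 0.33, 0.0375) and Vav1 (1.78 ± 0.32, 0.0375), while the lectin adaptor Fcer1g had 1.63 ± 0.38 (adjusted p = 0.0582). None of the 13 genes from CARD9 to NF-kappaB passed by edgeR, 3 had an unadjusted p under 0.05, and their median was 0.0046. Card9 had 0.72 ± 0.29 (edgeR adjusted p = 0.168). Of 14 tested cytokine and effector genes that these receptors are known to induce, 9 rose, with a median of 4.53 over the list. Csf3 stood at 4.32, Nlrp3 at 4.96 and Ptgs2 at 4.02 (edgeR adjusted p = 0.0352 each). Of the 9, Cxcl2 (7.57, described without a test) and 2 others passed the filter only through the CONV libraries. Without such genes 6 of 9 rose, with a median of 4.02.

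Other C-type lectins of myeloid cells contributed 1 call of 17, Clec5a (3.01 ± 0.59, edgeR adjusted p = 0.0415), a receptor that also pairs with Tyrobp, with a list median of 0.26. Cd207 (langerin of Langerhans cells) had −1.29 (adjusted p = 0.113) and Clec4a3 1.14 (0.105). Treml2, in the TREM cluster, had 0.85 ± 0.30 (edgeR adjusted p = 0.137). None of 12 ligands and shedding proteases passed by edgeR, with 6 at an unadjusted p under 0.05, and the TREM1 ligand Pglyrp1 had 0.99 (adjusted p = 0.0742).

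Some markers of cell types rose with these receptors while others of the same lists did not. Their part in the member values was not tested. Neutrophil markers rose in 5 of 12 tested, and in 3 of the 9 that also passed the filter outside CONV. Among these 3 were Mmp8 (4.18) and Mmp9 (2.79, edgeR adjusted p = 0.0352 each). Retnlg (7.20) and Stfa2l1 (6.03) passed the filter only through CONV and are described without a test. The list summed to 251, 716 and 811 CPM in CONV, against 48.1 to 139 in FLASH and 84.4 to 105 in sham, where Stfa2l1 was at 0. Macrophage markers rose in 3 of 13 (C1qa 1.91, C1qc 1.83 and Itgam 2.07) and summed to 551, 1187 and 1125 CPM in CONV, against 343 to 626 in FLASH and 295 to 377 in sham. Monocyte markers rose in 2 of 9, Plac8 (2.13) and Chil3 (5.01). Chil3 passed the filter only through CONV and is described without a test. Among lipid-associated macrophage genes 1 of 10 rose, Spp1 at 6.09 (edgeR adjusted p = 0.0352), while the median of that list was 0.80. No dendritic cell, T and NK cell, keratinocyte, hair, skeletal muscle or adipocyte marker passed by edgeR, although 4 of 10, 4 of 7, 2 of 8, 0 of 7, 0 of 8 and 1 of 6 had an unadjusted p under 0.05. Dendritic cell markers summed to 112 to 136 CPM in CONV, against 105 to 128 in FLASH and 106 to 119 in sham. In the pairwise skin comparisons no gene of any list passed. All list counts come from the fit of the member calls, in which 331 genes were called, and 0 to 1454 when 1 library was left out.

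**Figure D4:**
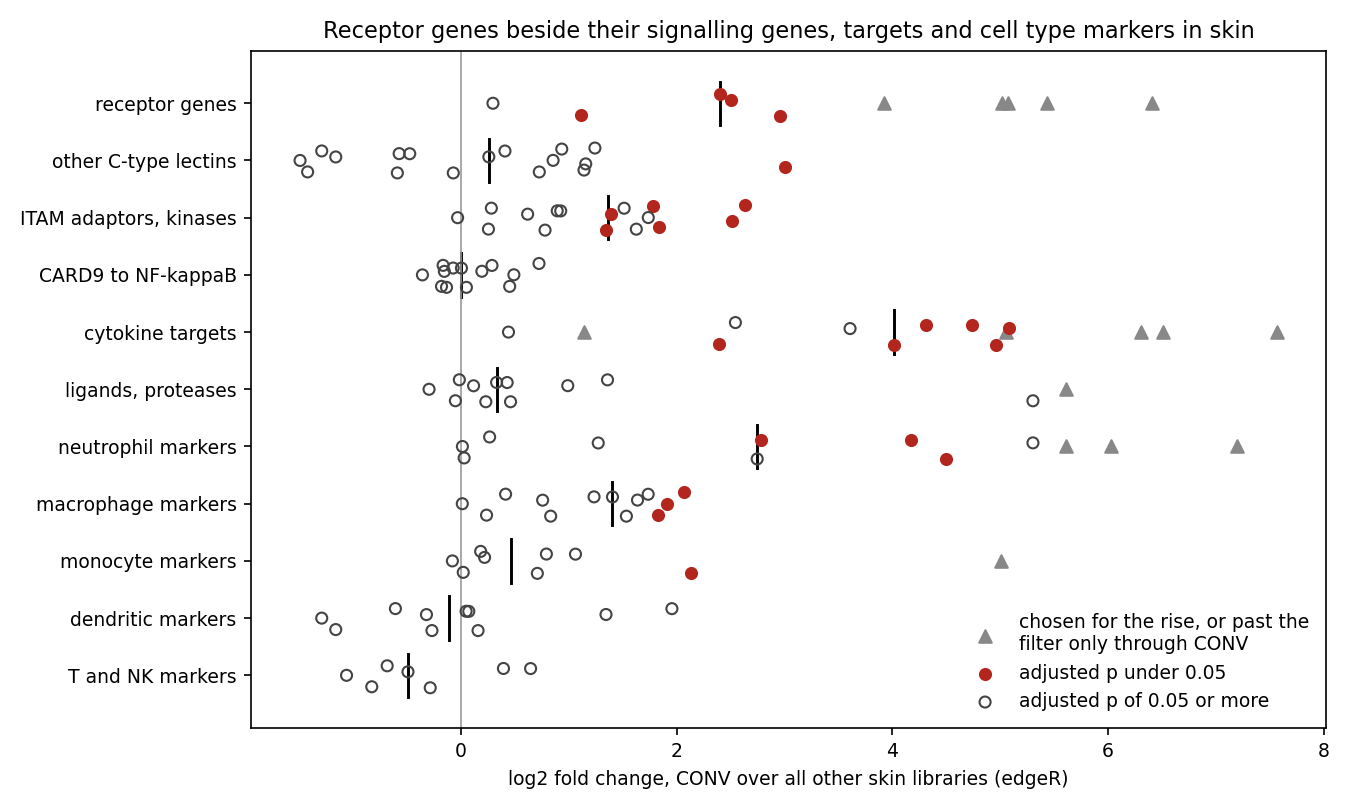
Log2 fold change of CONV over the 7 other skin libraries for the receptor genes and the genes of 10 lists, 1 point per gene, with a line at each list's median over the circles. Red points have an edgeR adjusted p under 0.05, and grey triangles are the 3 members chosen for CONV skin and genes past the filter only through CONV. Cytokine genes have the highest median at 4.02, and the CARD9 to NF-kappaB list sits at 0.0046.

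Across the 10 skin libraries the members other than Clec10a followed one another, with Pearson r of log2 CPM from 0.792 to 0.981 over 36 pairs (median 0.955). Since the CONV group carries much of that range, r over the 7 libraries without CONV was 0.268 to 0.956 (median 0.810). Among those 7, FLASH library 4 stood far above the rest for some members, such as Clec4d (4.28 CPM, against at most 0.300). Trem3 and Treml4 held at most 5 and 6 counts in any of the 7. How far these r rest on that library was not tested. The 9 pairs with Clec10a had r of 0.192 to 0.285 over the 10 libraries and −0.187 to 0.774 over the 7. In counts, Trem1 was 0.875 to 0.968 of Clec4e in the CONV libraries, against 0.175 to 0.624 in FLASH and 0.109 to 0.488 in sham.

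Over the 10 skin libraries, the non-member genes nearest to Trem1 in pattern were Hdc (r = 0.993), Il1b (0.993) and Olfr1033 (0.991), with r of 0.963, 0.954 and 0.952 over the 7 libraries without CONV. For Treml4 they were Aldh1l2 (0.988), Slfn4 (0.984) and Plaur (0.979), with 0.865, 0.812 and 0.828 over the 7. Clec4e was followed by Foxd4 (0.995), Plaur (0.994) and Lrrc8a (0.993), with 0.979, 0.946 and 0.977 over the 7. Trem2 had other neighbours, Mydgf (0.987), Tpm4 (0.986) and Tlnrd1 (0.983), with 0.896, 0.879 and 0.926. Clec10a was nearest to Naaa (0.951), Olfr1295 (0.933) and Gm5615 (0.931), with 0.953, 0.880 and 0.909. These are descriptions over few libraries, chosen as the highest of all tested genes.

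By TPM, the deposited unit that corrects for transcript length and so allows genes to be compared, the order of the members differed by group. In FLASH skin Clec10a (26.2 TPM) and Tyrobp (23.6 TPM) led, followed by Clec7a at 9.12 TPM and Clec4n at 7.14 TPM, with Treml4 and Trem3 last at 0.186 and 0.0880 TPM. In CONV skin Tyrobp led at 107 ± 75.7 TPM (SD, n = 3), followed by Clec4d at 47.8 ± 38.0, Clec7a at 46.1 ± 47.7, Clec4n at 33.5, Clec10a at 31.8, Clec4e at 29.7 and Trem1 at 23.4 TPM. Neighbours in the order overlapped over libraries throughout both groups. In sham skin Clec10a (22.7 TPM) and Tyrobp (17.0 TPM) overlapped each other and lay above Clec7a (7.55 TPM), which lay above Clec4n (3.77 TPM) and Trem2 (3.09 TPM), and below these came Clec4e (0.809 TPM) and Trem1 (0.336 TPM). Clec4d was eighth there, at 0.312 TPM, and second in CONV.

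In muscle, 3 members passed the filter on low counts (Tyrobp, Clec10a and Trem2), and none was called in any comparison. Of 13080 genes, 0.0459% were higher and 0.0153% lower in CONV against the 7 others, 0.00765% were higher and 0% lower in CONV against sham, 0% higher and 0.00765% lower in FLASH against CONV, and 0% in either direction in FLASH against sham. None of the 3 had an unadjusted p under 0.05 in any of the 4 comparisons. Tyrobp had 17, 5, 2 and 16 counts in FLASH, 10, 20 and 10 in CONV and 1, 15 and 9 in sham. Clec10a had 21, 20, 4 and 32 counts in FLASH, 17.2, 24.6 and 24 in CONV and 9.7, 20 and 16 in sham. Trem2 had 14, 11, 10 and 17 counts in FLASH, 13, 20 and 16 in CONV and 8, 8 and 17 in sham, and the groups of all 3 genes overlapped. Log2 fold changes of CONV over sham were 0.46 (Trem2), 0.58 (Tyrobp) and 0.42 (Clec10a), and of FLASH over sham 0.22, 0.24 and 0.30 in the same order.

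The lowest Tyrobp values of muscle, 0.204 and 0.435 CPM in FLASH and 0.0954 CPM in sham, were those of the 3 files that carry sham library names. With files assigned by library name, muscle Tyrobp averaged 1.21 ± 0.282 CPM in FLASH (n = 4), 1.11 ± 0.435 in CONV (n = 3) and 0.245 ± 0.174 in sham (SD, n = 3). The log2 fold change of CONV over sham was then 2.10 (edgeR adjusted p = 0.0632), and that of FLASH over sham 2.23 (adjusted p = 0.212), and neither passed.

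The other 7 members were below the filter in muscle, with at most 11.1 counts in a library. Trem1 had 2, 4 and 2 counts in CONV, against 4 counts over the 4 FLASH libraries and 1 over the 3 sham libraries, and Clec4e had 7, 6, 3 and 9 counts in FLASH, 2, 6 and 7 in CONV and 3, 2 and 3 in sham. Trem3 had 2 counts in 1 FLASH library and 0 in every other library, Treml4 and Clec4d at most 2 counts, Clec4n 0 to 5 and Clec7a 3 to 11.1. Summed neutrophil markers in muscle were 3.37 to 4.98 CPM in FLASH, 5.55 to 10.5 in CONV and 3.72 to 4.40 in sham, with Ly6g and Elane at 0 in all 3 groups, and macrophage markers 37.4 to 71.5, 68.2 to 73.1 and 26.3 to 76.7 CPM in the same groups.

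**Figure D5:**
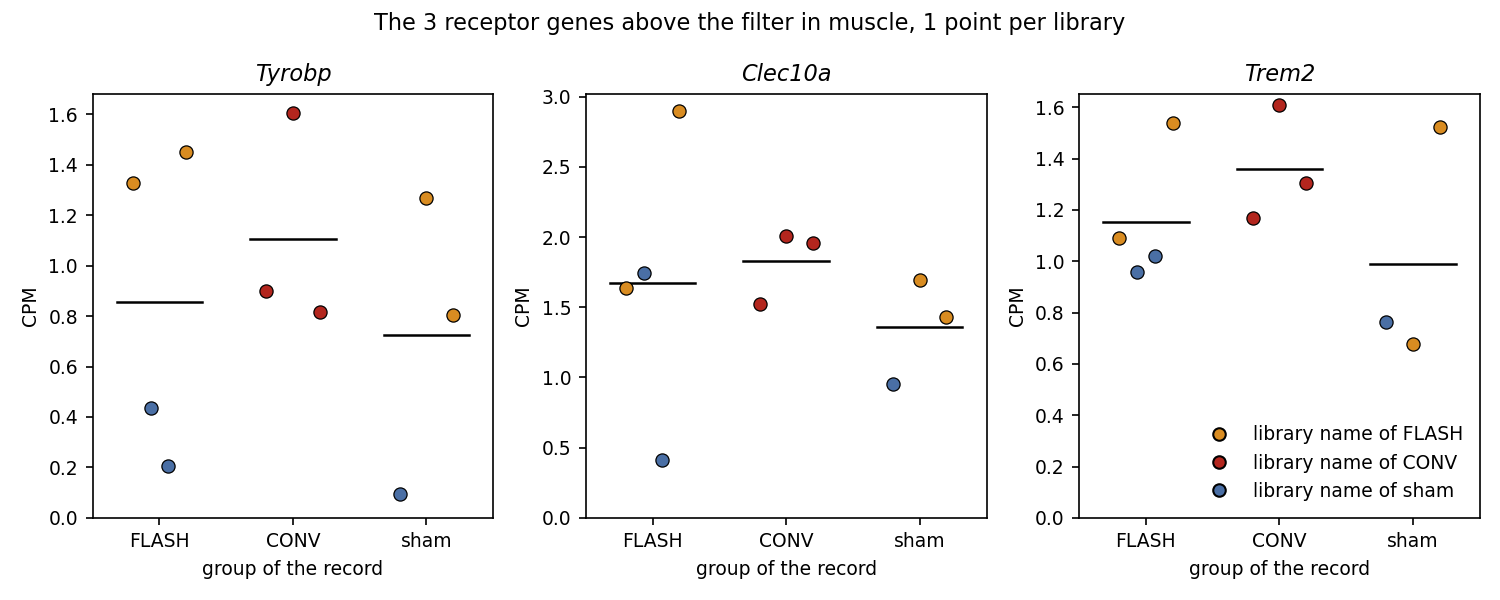
CPM of Tyrobp, Clec10a and Trem2 in each muscle library by the group of the record, with lines at group means and colours for the group that the library name gives. The 3 lowest Tyrobp points, 0.0954 to 0.435 CPM, are the files with sham names.

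Whether the response differed between skin and muscle was tested as an interaction over all 20 libraries, with 0% of 19199 genes past the threshold in either direction for CONV over sham and likewise for FLASH over sham. For CONV over sham, skin minus muscle, the interaction was 2.21 ± 0.92 on the log2 scale for Tyrobp (edgeR adjusted p = 0.295), 0.82 ± 0.44 for Trem2 (adjusted p = 0.407) and −0.10 for Clec10a. Without the libraries of disagreeing name that of Tyrobp was −0.78. Clec7a, below the filter in muscle, had 2.74 ± 0.95 (edgeR adjusted p = 0.221). For FLASH over sham Tyrobp, Trem2 and Clec10a had 0.22, 0.04 and −0.29. No difference in response between the tissues passed the threshold for these receptors.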

How the data were processed

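Estimated counts and TPM per transcript were computed and deposited by the authors with kallisto 0.5.0 and the mouse build mm10, per the submitters' processing notes; 1 file is 1 library. Libraries were stranded total RNA with ribosomal RNA removed, per the labels' protocols. The annotation release is not given in the sources used here.

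Transcripts were matched by identifier to GENCODE M21 (114322 of 116116, 98.5%), and the deposited estimated counts were summed to genes and rounded; unmatched transcripts held 0.873% to 1.85% of counts and were left out. kallisto divides reads between similar transcripts, so near copies are uncertain. edgeR 4.0.16 (R 4.3.3) tested all genes with TMM, its expression filter and a quasi-likelihood fit. Pairwise comparisons came from a fit of the 3 groups of a tissue together. CONV against all others came from a separate fit with FLASH and sham pooled. An adjusted p under 0.05 was called. SE is the fold change over the square root of F. Alternatives were DESeq2 1.42.0, other size factors, no filter, a replicate block, assignment by library name, libraries left out and coding transcripts only. Pairs of libraries within a group differed beyond sampling noise (chi-square 7.78 to 402.5 per degree of freedom). The edgeR dispersion gave a coefficient of variation of 0.428 for skin libraries and 0.173 for muscle libraries. A floor is 3 counts over a group and covers counting error only.

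The members and the 16 gene lists were chosen with earlier results of these data known. Of each list up to 4 genes, those of smallest p in CONV against all other skin libraries, were named, besides the members, Fcer1g and Card9, which were named for their role after their values were seen, and 3 neighbours in pattern of each of 5 members. Krt85, Ncr2, Trem5 and Treml3 of the lists were not analysed here, and 1 gene that the rule names is not reported here. Tables were made with Python 3.11.15 and pandas 2.3.3.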

Additional observations from a re-analysis of the deposited data

Results flagged for a closer look

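In the skin FLASH group of 4 libraries, FLASH library 4 lay far from the other 3 for 5 members. It held 4.04 CPM of Trem1, 0.152 CPM of Trem3, 4.28 CPM of Clec4d, 6.50 CPM of Clec4e and 7.68 CPM of Clec4n. The gap to the nearest other library took 0.931 of the range for Trem1, 1.0 for Trem3, 0.971 for Clec4d, 0.836 for Clec4e and 0.940 for Clec4n. Dixon's test at the 95% level was passed by 5 of 13 groups of 4 examined, and the 5 share 1 library. Chance passes about 1 in 20 for independent groups of normal values, which these genes need not be. Trem3 had 0 counts in the other FLASH libraries, so any count in FLASH library 4 would have passed.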

How the results depend on the processing

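Counts of members here are over the 5 that were not chosen for CONV skin and passed the filter outside CONV. Relative to sham and to the other skin libraries, CONV stayed higher for 4 of the 5 under every alternative run, Clec10a being the exception. Trem1, Treml4, Clec4e, Trem3 and Clec4d also stayed higher, which is no support given their choice or the filter. Calls and small differences moved, and the cause was not tested except where fewer libraries enter. In skin CONV against the others 4 members passed the threshold, and 0 without the 2 libraries whose names disagree. The count was 0 without the 2 libraries rich in skeletal muscle genes, and 0 to 4 when 1 library was left out. DESeq2 called 4 members in FLASH against CONV and 4 in CONV against sham, where edgeR called 0. Leaving out 1 library gave 0 to 1 (1 without CONV library 1) and 0 to 3 (2 without FLASH library 4, 3 without CONV library 1). Over all genes, CONV against the others called 331, and 2078 by DESeq2, 1292 with the replicate block and 0 to 1454 with 1 library left out. For CONV against sham DESeq2 called 1630 genes, for FLASH against CONV 457 and for FLASH against sham 4, where edgeR called 0. In muscle, no filter gave 53, 23 and 21 genes (CONV against the others, CONV against sham and FLASH against CONV), against 8, 1 and 1, and DESeq2 150, 49 and 41; by library name CONV against sham gave 164. The call of Clec4n was lost with no filter (adjusted p = 0.0515).

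With files assigned by library name, the highest mean TPM of sham skin was 29.2, the log2 fold change of Clec10a in skin FLASH over sham was −0.57, those of Tyrobp and Clec10a in muscle FLASH over CONV 0.13 and 0.055, and the FLASH interactions of Trem2 and Tyrobp −0.068 and −2.10. Without the libraries of disagreeing name, skin Clec10a FLASH over sham was −0.40, muscle FLASH over CONV was 0.18, 0.38 and 0.66 for Trem2, Tyrobp and Clec10a, muscle Clec10a CONV over the others −0.078, the CONV interaction of Tyrobp −0.78, and the FLASH interactions of Trem2 and Tyrobp −0.60 and −3.48. Coding transcripts alone gave −0.070 for skin Clec10a FLASH over sham, and Csf1r and Adgre1 as the only markers 0.16 for Trem2 relative to macrophage markers.

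Replicate numbers did not pair the libraries: the correlation of same-numbered deviations was −0.711 to 0.517 in skin, −0.235 to 0.213 in muscle and −0.046 to 0.074 between tissues. With the replicate block, 4 of the 5 members passed in skin CONV against the others, as in the main fit. Under the block skin FLASH over sham was −1.86 for Trem3, −0.078 for Clec7a and −0.20 for Clec10a, muscle FLASH over sham −0.085 for Tyrobp and −0.10 for Clec10a, and the FLASH interaction of Trem2 −0.0054.

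Leaving out 1 library at a time changed the sign of small log2 differences, with these ranges. The CONV interaction ran from −0.83 to 0.26 for Clec10a. The FLASH interaction ran from −0.42 to 0.24 for Trem2, −0.60 to 0.10 for Clec10a and −0.47 to 0.72 for Tyrobp. Skin FLASH over sham ran from −0.25 to 0.36 for Clec10a, −1.81 to 3.40 for Trem3 and −0.10 to 0.71 for Clec7a. Skin FLASH over CONV ran from −0.58 to 0.45 for Clec10a. Skin CONV over sham ran from −0.45 to 0.66 for Clec10a. Skin CONV over the others ran from −0.45 to 0.58 for Clec10a. Muscle FLASH over sham ran from −0.25 to 0.91 for Tyrobp and −0.079 to 0.60 for Clec10a. Muscle FLASH over CONV ran from −0.50 to 0.18 for Clec10a and −0.69 to 0.037 for Tyrobp. The level relative to macrophage markers ran from −0.27 to 0.16 for Trem2. The count of members past the threshold relative to macrophage markers ran from 4 to 6 of the 7 not chosen for CONV skin. It includes Trem3 and Clec4d, which passed the filter only through CONV and had to differ, so it is no support. With at most 3 libraries in CONV and sham, and counts under 12 for most members in muscle, small differences could not be resolved.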
